A study of Mus musculus with 70 samples.

Results

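The parenchymal and blood transcripts are 43 genes, of 53465 gene IDs counted, that mark epithelium, melanocytes, stroma, endothelium, fat, red cells and platelets. They were chosen by name from a fixed list, which was used to look for RNA of the surrounding tissue in sorted regulatory T cells (Tregs). The list was made with earlier results of these data known. They fall into 10 lists by source, and 32 of the 43 passed the filter for testing, which required at least 1 CPM (counts scaled to a library of 1000000) in at least 10% of the libraries. The filter lets a gene of 1 tissue pass through the very libraries in which it is high, so counts of members are read below as descriptions and not as support for the lists.

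RNA was measured by SMART-Seq v4 in Tregs from 6 tissues of 5 male mice aged 16.6 to 18.6 weeks. In these animals the Foxp3 promoter drives a fusion of YFP and Cre (Foxp3YFP-cre, the allele Foxp3tm4(YFP/icre)Ayr on the background given in the labels as B6.129(Cg)), and every group carries this allele. The same 5 mice supplied all 14 groups, 1 library per mouse and group. ST2+ CD44hi and ST2- CD44hi Tregs came from blood, spleen, lungs, visceral adipose tissue (VAT), colon and skin, and another population, ST2- CD44lo CD62L+, from spleen and lungs alone. ST2 is the receptor for IL-33, CD44hi cells are activated, and CD44lo CD62L+ cells are resting. Each library was made from a sort of 220 cells gated as CD45.2+ CD4+ YFP+ and negative for CD8 and CD11b, with fewer cells in some blood and VAT libraries, as given beside their values. Lungs were perfused, and blood, spleen, lung and VAT suspensions passed through red cell lysis. Lungs, VAT and skin were digested with collagenase, and colon was treated with EDTA and DTT before collagenase. For spleen and lungs alone, CD4+ T cells were enriched with an isolation kit before the sort. The tissue, the way it was dissociated and this enrichment cannot be told apart.

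The 67 libraries with over 1000000 counts held 1304560 to 2759926 counts each, with a median of 2039002, so that 1 CPM is about 2 counts. Left out were the Blood ST2+ library of mouse 1 and the Colon ST2+ libraries of mice 2 and 5, which leaves 4 and 3 libraries in these groups. The summed level of 7 Treg markers had group means of 2753 to 4734 CPM, so Treg transcripts were present throughout. The 43 genes together took 0.0246% of all counts in the VAT ST2+ libraries and 0.313% ± 0.218 (SD, n = 3) in the Colon ST2+ libraries, the lowest and highest group means. In bulk libraries, fewer cells of a type and less RNA per cell cannot be told apart.

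Each source has its own products. Alveolar type II cells make surfactant proteins, club cells make secretoglobins, goblet cells make mucus, keratinocytes make keratin filaments, fibroblasts lay down collagen and proteoglycans, red cells carry globin, and platelets carry chemokines in their granules. None of these products belongs to the usual program of a T cell, although CD31 and a few other surface molecules on the list are known on leukocytes as well. Levels are given below in CPM in the order of mice 1 to 5.

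**Figure D1:**
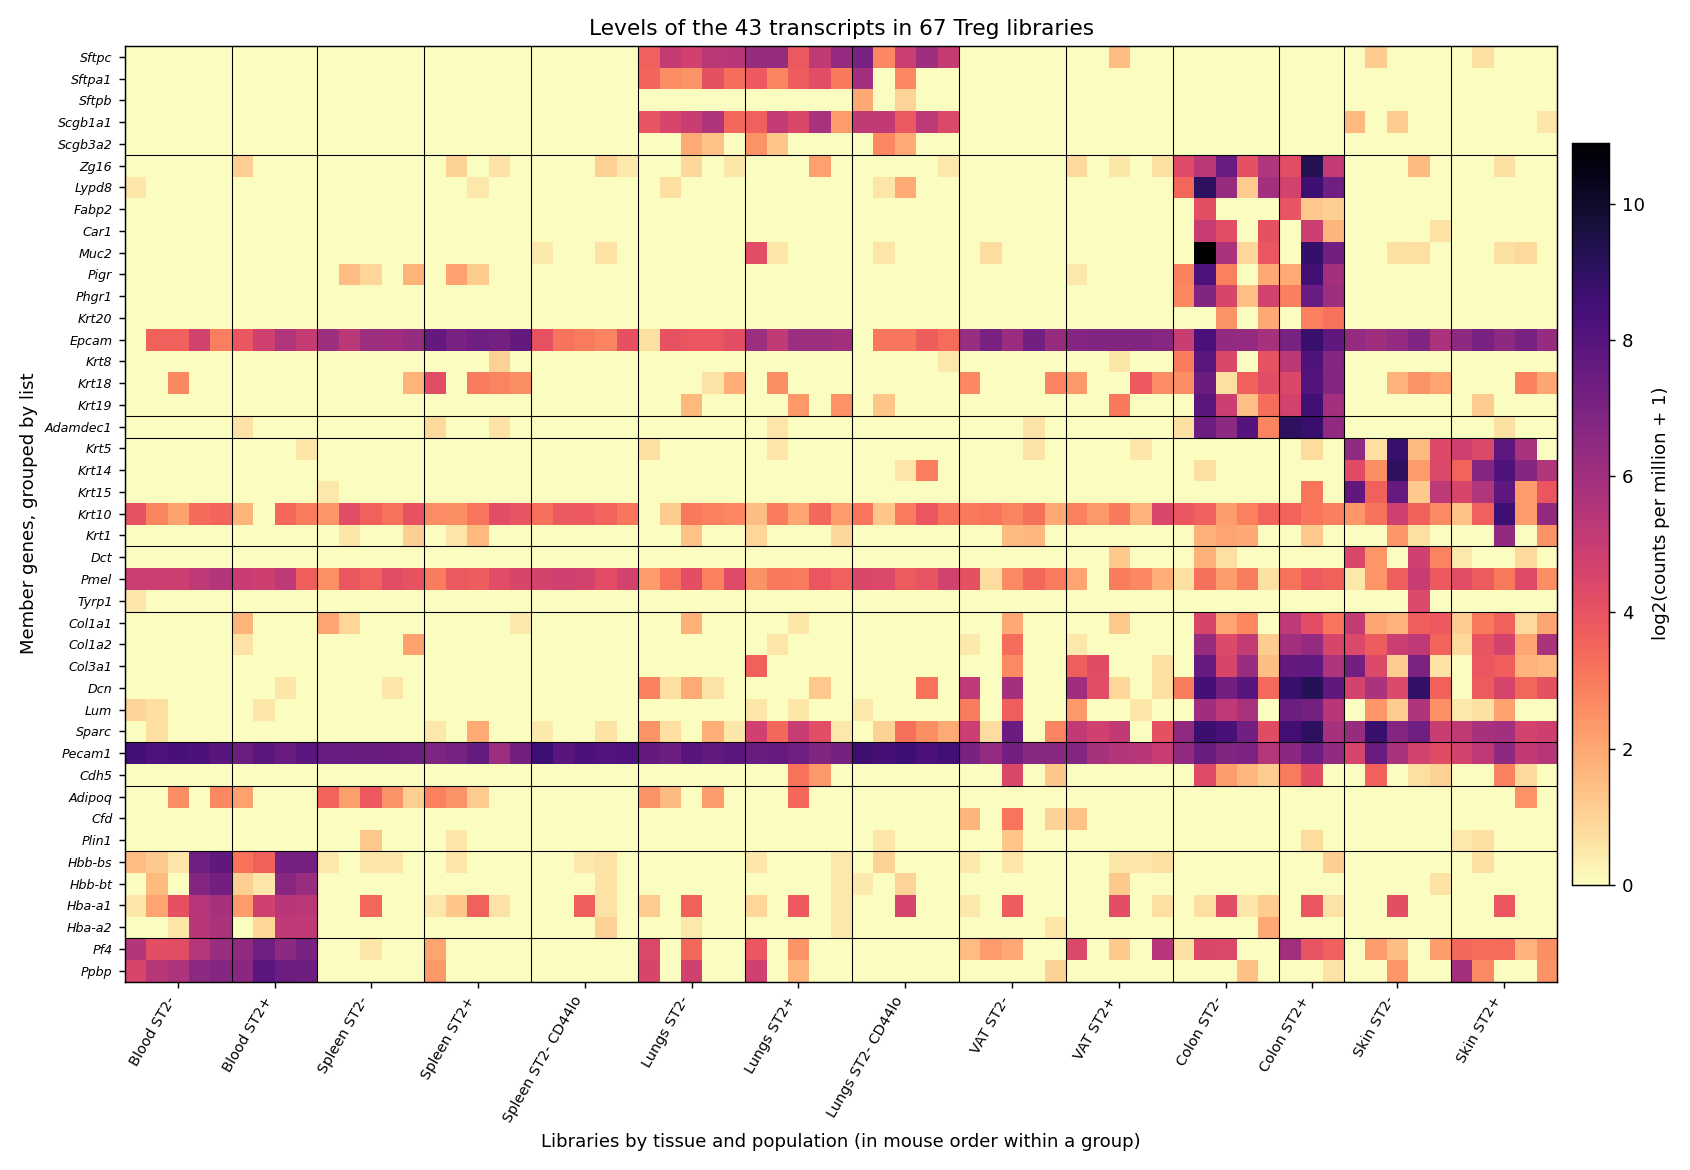
Heatmap of the 43 genes (rows, grouped by source) in the 67 libraries (columns, grouped by tissue and population, mice in order), with colour showing log2(CPM + 1). Lung genes stand out in the 15 lung libraries, gut genes in the 8 colon libraries, keratins in the 10 skin libraries and globins and platelet genes in the 9 blood libraries, while Epcam, Pecam1, Krt10 and Pmel are coloured in nearly all libraries.

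Each tissue was compared with the spleen in the same population, with calls at an adjusted p of at most 0.05 and a fold change of at least 1.5 (edgeR's quasi-likelihood test, Benjamini-Hochberg adjustment over 13173 genes). These comparisons share their spleen libraries, so they are not independent of each other. Where the spleen libraries held no count of a gene, a fold is a lower bound against a floor of 3 counts over the group.

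Lung epithelial RNA was found in all 15 lung libraries and was almost absent elsewhere. Sftpc, which encodes surfactant protein C of alveolar type II cells (chr14:70520949-70524081, minus strand, GRCm38), was at 11.4, 32.1, 25.7, 38.2 and 39.3 CPM in the Lungs ST2- CD44hi libraries. In the ST2+ libraries it was at 75.9, 76.0, 13.6, 34.8 and 77.7 CPM, and in the CD44lo CD62L+ libraries at 126, 5.43, 28.6, 64.0 and 31.5 CPM. No lung library was at 0, and outside the lungs 7 counts were found in 3 of 52 libraries, none of them from the spleen. Sftpc was at least 119.5-fold higher than in the spleen in ST2- CD44hi cells (29.3 ± 11.4 CPM, SD, n = 5, adjusted p = 1.91e-05). It was at least 217-fold higher in ST2+ cells (55.6 ± 29.6 CPM, adjusted p = 5.68e-06) and at least 211-fold higher in CD44lo CD62L+ cells (51.1 ± 46.9 CPM, adjusted p = 9.14e-06).

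Scgb1a1, the secretoglobin of club cells (chr19:9083636-9087958), was likewise counted in 15 of 15 lung libraries. It was at 14.6, 22.4, 29.8, 47.1 and 9.60 CPM in ST2- CD44hi, at 11.4, 32.9, 20.6, 53.1 and 3.82 CPM in ST2+ and at 34.8, 33.6, 13.6, 37.2 and 19.95 CPM in CD44lo CD62L+ Tregs. The 3 populations overlapped fully, with means of 24.7 ± 14.7, 24.4 ± 19.4 and 27.8 ± 10.4 CPM (SD, n = 5 each). The gene was at least 98.8-fold, 84.0-fold and 107-fold higher than in the spleen of the same population (adjusted p = 4.66e-05, 5.05e-05 and 5.56e-05). Sftpc and Scgb1a1 were among the genes already known from earlier results of these data to be restricted to the lungs, so their calls are not new evidence.

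Sftpa1, a surfactant protein of the collectin family (chr14:41131782-41136452), was lower. It was at 10.8, 5.13, 4.48, 15.7 and 8.72 CPM in ST2- CD44hi and at 13.2, 5.89, 12.7, 17.7 and 7.22 CPM in ST2+ Tregs. In CD44lo CD62L+ Tregs it was at 59.9, 0, 5.62, 0 and 0 CPM, so that 1 library held most of its counts. None of the 52 libraries outside the lungs held a count of it. Its adjusted p was 0.0304, 0.0232 and 0.0288 against the spleen in the 3 populations. The ST2- CD44hi and CD44lo calls were lost when any 1 of the 5 mice was left out of all groups, and the ST2+ call was lost without mouse 2, 3, 4 or 5. DESeq2 made none of the 3 calls (adjusted p = 0.530, 0.471 and 0.541), and with the mouse as a block in the fit the CD44lo call was lost (adjusted p = 0.120). The remaining lung genes were scarce: Sftpb, another surfactant protein, was counted in 2 of 15 lung libraries at up to 2.996 CPM, and the secretoglobin Scgb3a2 in 6 of 15 at up to 5.43 CPM. Neither was counted in any of the 52 libraries outside the lungs.

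Together, 3 of 3 tested lung genes were called higher in each lung population, beside 4.03% of all genes called in ST2- CD44hi, 4.87% in ST2+ and 3.16% in CD44lo CD62L+ Tregs. Their median log2 fold change was 8.69, 8.68 and 8.83, beside a median of -0.02, -0.0021 and 0 over all genes tested, with fitted values that depend on the prior count because the spleen libraries were at 0. The summed level of the 5 genes was 36.8 to 103 CPM in ST2- CD44hi, 47.0 to 116 CPM in ST2+ and 44.4 to 224 CPM in CD44lo CD62L+ Tregs, a narrow range in comparison with colon and skin below. Relative to transcript length, the level of Scgb1a1 averaged 51.6 CPM per kb in the CD44hi lung libraries, that of Sftpc 41.1 and that of Sftpa1 3.55. Of the other lung markers listed, 0 of 3 tested were called higher in any lung population.

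Epithelial RNA of the gut was present in every colon library, but its level differed widely between mice. Muc2, the gel-forming mucin of goblet cells (chr7:141690340-141754693), was at 0, 1902, 51.5, 0.855 and 14.1 CPM in Colon ST2- CD44hi Tregs. In Colon ST2+ Tregs it was at 0, 448 and 147 CPM in mice 1, 3 and 4. A single library, ST2- CD44hi of mouse 2, held most of the counts, and both libraries of mouse 1 held none. Muc2 was at least 1427-fold and 638-fold above the spleen in the 2 populations, but it did not pass the filter and was not tested. It was also counted in 10 of 59 libraries outside the colon, the highest being 18.0 CPM in Lungs ST2+ of mouse 1.

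Lypd8, which encodes an antibacterial protein of the colonic surface (chr11:58379043-58390728), was at 10.1, 520.4, 74.1, 1.28 and 59.96 CPM in ST2- CD44hi Tregs. In ST2+ Tregs it was at 24.1, 379 and 155 CPM in mice 1, 3 and 4. All 8 colon libraries held it, and mice 2 and 3 gave the highest values. Lypd8 was at least 483-fold higher than in the spleen in ST2- CD44hi cells (133 ± 219 CPM, SD, n = 5, adjusted p = 1.40e-05). In ST2+ cells the spleen libraries held so few counts that the ratio of 1850.2 has a 95% counting interval of 331 to 73163 (186 ± 179.7 CPM, n = 3, adjusted p = 3.40e-05).

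Zg16, a lectin of goblet cell granules, was at 19.0, 38.7, 180.3, 16.3 and 45.9 CPM in ST2- CD44hi Tregs. In ST2+ Tregs it was at 18.1, 623 and 33.4 CPM in mice 1, 3 and 4. Its highest value in both populations came from mouse 3. It was at least 219.7-fold higher than in the spleen in ST2- CD44hi cells (adjusted p = 1.74e-06), and its ratio in ST2+ cells was 693, with a counting interval of 237 to 3368 (adjusted p = 1.85e-06). Lypd8 and Zg16 also belong to the genes known from earlier results to be restricted to the colon.

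Of the 12 intestinal genes, 8 were tested. In ST2- CD44hi cells 7 of the 8 were called higher in colon than in spleen, beside 11.0% of all genes called: Lypd8, Zg16, Phgr1, the polymeric immunoglobulin receptor Pigr and the simple-epithelium keratins Krt8, Krt18 and Krt19. In ST2+ cells 6 of 8 were called, beside 10.4% of all genes, with Krt18 missing. The median log2 fold change of the 8 was 9.52 and 9.38, beside 0.02 and 0.05 over all genes tested. Pigr, which carries IgA across the epithelium, was at 6.15, 292, 6.28, 0 and 2.94 CPM in ST2- CD44hi cells and at 2.78, 362 and 58.1 CPM in mice 1, 3 and 4 of the ST2+ cells. Its ST2- CD44hi call was lost with the mouse as a block (adjusted p = 0.0881) and by limma with voom and quality weights (adjusted p = 0.0908). Phgr1 was counted in 8 of 8 colon libraries, at 1.71 to 180.5 CPM, and in 0 of 59 others. Krt8 reached 281 CPM and Krt19 368 CPM, both in Colon ST2+ of mouse 3. Krt18 was the least restricted of the keratins, with counts in 19 of 59 libraries outside the colon, up to 17.9 CPM in Spleen ST2+ of mouse 1. Fabp2 and Krt20, genes of absorptive cells, were each counted in 4 of 8 colon libraries and Car1 in 5 of 8, and these 3 were not tested.

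The summed level of the 12 genes was 82.8, 3859, 490, 112 and 263 CPM in the ST2- CD44hi colon libraries. It was 283, 3372 and 951 CPM in mice 1, 3 and 4 of the ST2+ colon libraries. Of the 12 genes, 7 had their highest value of all libraries in Colon ST2+ of mouse 3 and 4 in Colon ST2- CD44hi of mouse 2. The other intestinal markers listed followed, at 22.9 to 1578 CPM and 106 to 2168 CPM summed in the 2 populations, with 5 of 7 tested called higher in each. Over all lists, 14 members were called higher in colon and 1 lower in ST2- CD44hi cells, and 14 higher in ST2+ cells. Without mouse 2 the calls in ST2- CD44hi cells fell from 15 to 9, without mouse 3 to 10, and without mouse 3 those in ST2+ cells fell from 14 to 7, which took away Zg16, Phgr1, Krt19 and Pigr among others. The counts without mouse 3 also lack Adamdec1, which then did not pass the filter. DESeq2 called 9 in each, leaving out Lypd8, Krt8, Krt19, Phgr1 and Pigr in both populations.

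Adamdec1, a metalloprotease-like gene of lamina propria macrophages and stroma (chr14:68563380-68582095), was at 0.559, 166, 90.4, 256 and 5.88 CPM in Colon ST2- CD44hi Tregs. In Colon ST2+ Tregs it was at 527, 424 and 87.2 CPM in mice 1, 3 and 4. It had counts in all 8 colon libraries and in 6 of 59 others at no more than 0.795 CPM. It was at least 451-fold higher than in the spleen in ST2- CD44hi cells (104 ± 109 CPM, n = 5, adjusted p = 7.68e-07). Its ratio in ST2+ cells was 1344, with a counting interval of 459 to 6524 (346 ± 230.2 CPM, n = 3, adjusted p = 6.59e-07). Without mouse 3 or mouse 4 the gene did not pass the filter and was not tested, and both calls held in each alternative in which it was tested. Adamdec1 is a further gene known from earlier results. The summed level of 6 macrophage and monocyte markers was 24.0 to 194 CPM in Colon ST2- CD44hi and 1001 to 1185 CPM in Colon ST2+ Tregs, against at most 20.04 CPM in the spleen groups, and its part in the Adamdec1 values was not tested.

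Keratins of the basal epidermis were found in all 10 skin libraries, again at very unequal levels. Krt14, the basal type I keratin (chr11:100203162-100207548), was at 18.1, 4.88, 519, 3.88 and 20.4 CPM in Skin ST2- CD44hi Tregs and at 10.8, 105, 280.1, 104 and 45.3 CPM in Skin ST2+ Tregs. Outside the skin, 3 of 57 libraries held 14 counts in all, the highest 6.56 CPM. Krt14 was at least 425-fold higher than in the spleen in ST2- CD44hi cells (113 ± 227 CPM, adjusted p = 0.000164) and at least 384-fold higher in ST2+ cells (109 ± 104 CPM, n = 5 each, adjusted p = 0.000184).

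Krt5, the partner of Krt14 in basal filaments (chr15:101707070-101712898), was at 86.5, 0.609, 432, 1.94 and 19.8 CPM in ST2- CD44hi and at 26.8, 20.3, 226, 53.7 and 0 CPM in ST2+ Tregs. Krt15, a keratin of basal and hair follicle stem cells (chr11:100131758-100135928), was at 209, 10.97, 186, 1.29 and 37.5 CPM in ST2- CD44hi and at 22.4, 46.0, 214, 3.83 and 14.1 CPM in ST2+ Tregs. Mouse 3 was high for all 3 keratins in both populations, and mice 2 and 4 were the lowest for all 3 in ST2- CD44hi Tregs. Krt5 was at least 428-fold and 237-fold higher than in the spleen (adjusted p = 7.38e-06 and 1.91e-05). Krt15 had a ratio of 1189, with a counting interval of 213 to 47021, in ST2- CD44hi cells and was at least 227-fold higher in ST2+ cells (adjusted p = 0.000372 and 0.000366). DESeq2 did not make the Krt15 calls (adjusted p = 0.106 and 0.110).

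The suprabasal keratins Krt10 and Krt1 mark keratinocytes that have left the basal layer. Krt10 was at 4.12, 7.92, 26.9, 10.998 and 5.36 CPM in Skin ST2- CD44hi Tregs, where the Spleen ST2- CD44hi libraries spanned 4.33 to 17.2 CPM. In Skin ST2+ Tregs it was at 1.60, 11.3, 397, 3.83 and 81.6 CPM, so that mice 3 and 5 stood above the others. Krt1 followed in the same 2 libraries, at 82.0 and 4.53 CPM, and was at 0 in the other 3. Both were called higher than in the spleen in ST2+ cells (Krt10 log2 fold change 3.51, SE 0.86, adjusted p = 0.000973, and Krt1 adjusted p = 0.0425), and the Krt10 call was lost without mouse 3. The Krt1 call was lost without mouse 1, 2, 4 or 5, by DESeq2 and with the mouse as a block (adjusted p = 0.0996), and without mouse 3 the gene did not pass the filter. In all, 3 of 5 epidermal genes were called higher in ST2- CD44hi and 5 of 5 in ST2+ Tregs, where 30.9% and 29.1% of all genes were called. Their median log2 fold change was 9.42 and 10.1, beside 0 and -0.01 over all genes tested. Of the other epidermal markers listed, 7 of 9 and 9 of 9 were called higher.

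Melanocyte genes were scarce. Pmel, a structural protein of melanosomes (chr10:128704195-128720238), was at 0.412, 4.27, 11.7, 31.1 and 12.9 CPM in Skin ST2- CD44hi and at 18.0, 12.5, 7.30, 19.2 and 5.04 CPM in Skin ST2+ Tregs. The spleen CD44hi libraries spanned 4.72 to 22.1 CPM, and 1 of 10 skin libraries, ST2- CD44hi of mouse 4, lay above this range. Pmel was counted in 66 of 67 libraries and was highest in Blood ST2- CD44hi Tregs (33.0 ± 7.13 CPM, n = 5). Its exons overlap those of Cdk2 by 34 bases and of Dgka by 105 of 2292 bases on the opposite strand, and since the strand setting of the counting is not given in the sources used here, reads of these genes cannot be told apart there. Dct, an enzyme of melanin synthesis, was at 21.4, 4.27, 0, 25.9 and 5.90 CPM in Skin ST2- CD44hi Tregs, at least 47.7-fold above the spleen. Only 2 counts of Dct were found in Skin ST2+ Tregs, and 3 of 57 libraries outside the skin held it at up to 2.42 CPM. Tyrp1, the next enzyme, was at 19.4 CPM in Skin ST2- CD44hi of mouse 4 and had 1 count elsewhere. All 3 melanocyte genes had their highest skin value in that library. Dct and Tyrp1 did not pass the filter and were not tested.

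Stromal RNA was found in colon, skin and VAT. In the CD44hi lung populations the only stromal gene called higher was Sparc, in ST2+ Tregs. Sparc, a collagen-binding matrix glycoprotein (chr11:55394500-55423183), was at 85.0, 417, 316, 149.7 and 18.2 CPM in Colon ST2- CD44hi Tregs and at 355, 519 and 55.4 CPM in mice 1, 3 and 4 of Colon ST2+ Tregs. In skin it was at 74.2, 433, 105, 156 and 30.0 CPM in ST2- CD44hi and at 35.2, 54.9, 60.1, 23.8 and 27.7 CPM in ST2+ Tregs. In VAT it was at 28.6, 0.652, 173, 0 and 5.97 CPM in ST2- CD44hi and at 33.5, 25.6, 34.4, 0 and 16.3 CPM in ST2+ Tregs. The Spleen ST2+ libraries reached 2.86 CPM at most and the Spleen ST2- CD44hi libraries held no count, so that colon and skin did not overlap with the spleen, whereas VAT did through mouse 4.

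Sparc was at least 757-fold higher than in the spleen in Colon ST2- CD44hi cells (197 ± 165 CPM, adjusted p = 5.44e-07), at least 592-fold in Skin (159.5 ± 159 CPM, adjusted p = 2.23e-07) and at least 174-fold in VAT (41.6 ± 74.3 CPM, n = 5 each, adjusted p = 9.60e-05). In ST2+ cells the log2 fold change was 8.81 in colon (SE 1.33, adjusted p = 3.03e-06), 5.96 in skin (SE 1.24, adjusted p = 0.000139), 4.97 in VAT (SE 1.24, adjusted p = 0.0035) and 4.59 in lungs (SE 1.24, adjusted p = 0.0144). In Lungs ST2+ Tregs Sparc was at 25.4, 9.81, 31.2, 17.7 and 0.425 CPM, and this call was lost without mouse 1 or mouse 2. By voom, the calls of Sparc in VAT (adjusted p = 0.108 and 0.150) and in Lungs ST2+ Tregs (adjusted p = 0.139) were all lost. In Lungs ST2- CD44hi Tregs it was at 4.44, 0.641, 0, 2.62 and 0.436 CPM and was not called. The lung populations overlapped, and the difference between them was not called.

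Dcn, the collagen-binding proteoglycan decorin (chr10:97479609-97518143), was at 6.71, 349, 146, 245 and 9.41 CPM in Colon ST2- CD44hi Tregs and at 429, 602 and 209 CPM in mice 1, 3 and 4 of Colon ST2+ Tregs. In skin it was at 23.9, 52.4, 19.3, 475 and 11.3 CPM in ST2- CD44hi and at 0, 12.5, 23.0, 9.97 and 15.6 CPM in ST2+ Tregs. In VAT it was at 37.7, 0, 58.6, 0 and 0 CPM in ST2- CD44hi and at 63.1, 17.7, 0.895, 0 and 0.651 CPM in ST2+ Tregs. Decorin was therefore in every colon library and in 9 of 10 skin libraries but in 2 of 5 and 4 of 5 VAT libraries. Dcn was called higher than in the spleen in all 6 comparisons (adjusted p = 0.000118 and 2.99e-05 in colon, 5.17e-05 and 0.00572 in skin, and 0.0145 and 0.0079 in VAT). The VAT call in ST2- CD44hi cells was lost without mouse 2 or mouse 3 and that in ST2+ cells without mouse 1. Voom made neither VAT call of Dcn, with log2 fold changes of 2.65 and 3.81 (adjusted p = 0.428 and 0.236).

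Col3a1, a chain of fibrillar collagen (chr1:45311538-45349706), was counted in none of the 24 spleen and blood libraries. It was at 0, 193, 22.0, 72.3 and 1.76 CPM in Colon ST2- CD44hi Tregs and at 201, 203 and 48.3 CPM in mice 1, 3 and 4 of Colon ST2+ Tregs, at least 573-fold above the spleen in the latter. In skin it was at 145, 19.5, 1.17, 124 and 0.536 CPM in ST2- CD44hi and at 0, 14.3, 11.8, 2.30 and 2.01 CPM in ST2+ Tregs. Mice 1 and 4 were the highest in Skin ST2- CD44hi Tregs, and the ST2+ skin libraries lay below both of them. The type I collagen chains Col1a1 and Col1a2 were lower, at up to 37.1 and 78.2 CPM in colon, 32.6 and 51.9 CPM in skin and 2.93 and 9.28 CPM in VAT.

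Of 6 stromal genes, 5 were called higher in Colon ST2- CD44hi and 6 in Colon ST2+ Tregs. Skin had 6 and 5, VAT 3 and 2, lungs 0 and 1 such calls. For VAT this stands beside 5.78% and 11.2% of all genes called in either direction, with 4.26% and 5.87% called higher. The shares of all genes called higher were 8.62% in each colon population, 16.7% and 14.4% in skin and 3.2% and 3.35% in lungs. The median log2 fold change of the 6 was 9.49 and 10.4 in colon, 8.74 and 6.38 in skin and 5.09 and 4.52 in VAT. Lum, the proteoglycan lumican, was called in VAT ST2- CD44hi Tregs with counts in 2 of 5 libraries, and this call was lost when any 1 mouse was left out, by DESeq2 and voom, and with the mouse as a block (adjusted p = 0.0552). In VAT ST2- CD44hi Tregs the calls over all lists fell from 3 to 1 without mouse 2 or mouse 3, which lost Dcn and Lum. In VAT ST2+ Tregs they fell from 4 to 2 without mouse 3, 4 or 5. The calls lost there were those of Pecam1 and Pmel, both lower than in the spleen, and the stromal calls of Dcn and Sparc stayed. The VAT ST2- CD44hi libraries came from 220, 93, 192, 118 and 135 cells.

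Epithelium and stroma ranked some libraries alike and others unlike. Colon ST2- CD44hi of mouse 2 was the highest of its group for the intestinal sum (3859 CPM) and for Sparc, Dcn and Col3a1. Colon ST2+ of mouse 3 had the highest colon value of 7 intestinal genes and of Col1a2, Col3a1, Dcn and Sparc. In Skin ST2+ Tregs mouse 3 was the highest for the epidermal sum (1199 CPM) and the stromal sum. Other libraries differed. In Colon ST2+ of mouse 1 the summed stromal genes reached 1247 CPM and the summed intestinal genes 283 CPM, while in Colon ST2+ of mouse 4 they were at 383 and 951 CPM. In Skin ST2- CD44hi Tregs the stromal sum was 296, 524, 157, 849 and 70.2 CPM and the epidermal sum 318, 24.4, 1168, 18.8 and 83.1 CPM. Mice 2 and 4 were the highest for stroma and the lowest for epidermis. In Skin ST2+ Tregs the stromal sum was 37.6, 104, 133, 39.9 and 100.2 CPM, lower than in ST2- CD44hi in 4 of 5 mice, but 0 of 6 stromal genes were called between the populations.

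**Figure D2:**
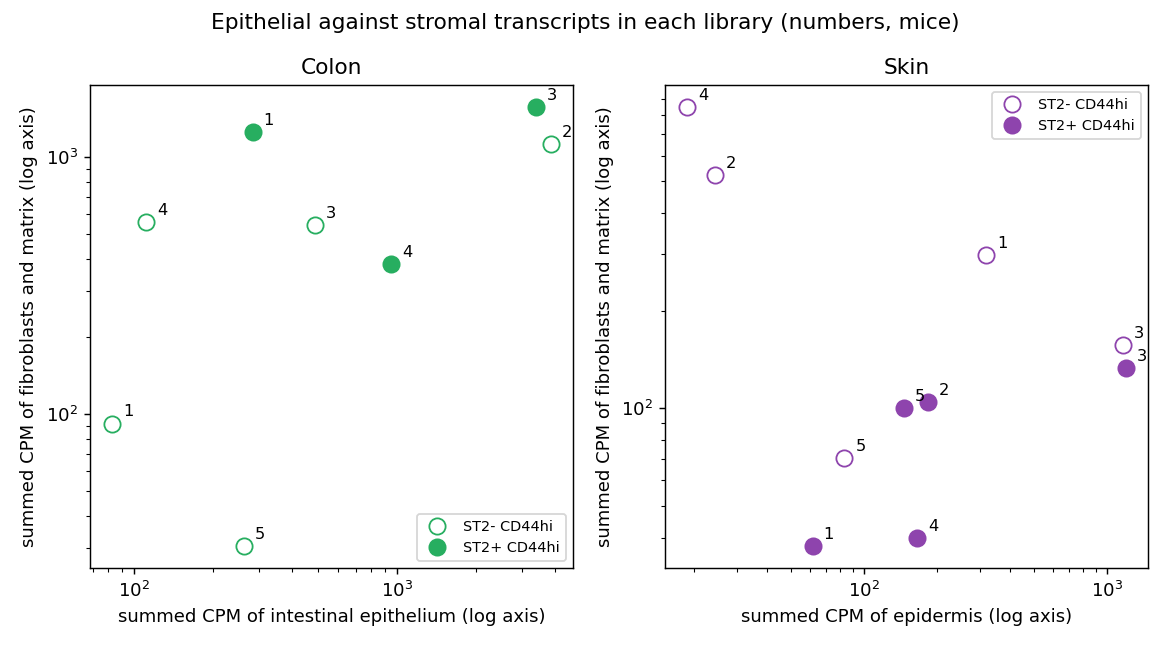
Summed CPM of the epithelial genes (colon, 12 intestinal genes, and skin, 5 epidermal genes) against summed CPM of the 6 stromal genes, both on log axes, 1 point per library with the mouse number, open for ST2- CD44hi and filled for ST2+. The Skin ST2- CD44hi libraries of mice 2 and 4 lie at high stroma (524 and 849 CPM) and low epidermis (24.4 and 18.8 CPM), and those of mouse 3 at the highest epidermis (1168 and 1199 CPM).

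The endothelial genes behaved unlike each other. Cdh5, the cadherin of endothelial junctions, was counted in 15 of 43 libraries of lungs, VAT, colon and skin and in 0 of 24 of blood and spleen. Its highest value was 20.5 CPM in VAT ST2- CD44hi of mouse 3. In Colon ST2- CD44hi Tregs it was at 0, 18.7, 3.77, 2.14 and 1.18 CPM, and in Skin ST2- CD44hi Tregs at 0, 10.97, 0, 0.647 and 1.07 CPM. edgeR called it against the spleen in the latter, at least 9.10-fold higher (adjusted p = 0.0451). Leaving out any 1 mouse ended this call, and so did DESeq2 (adjusted p = 0.270) and testing with no CPM filter (adjusted p = 0.0533). In colon its adjusted p was 0.0560 and 0.0514, while voom called it in both populations (adjusted p = 0.00137 and 0.0109). In Colon ST2+ cells it was also called with the mouse as a block (adjusted p = 0.0212), with RLE in place of TMM scaling factors (adjusted p = 0.0490) and with all 70 libraries (adjusted p = 0.0461), and in Skin ST2+ cells by voom (adjusted p = 0.0487). Of the other endothelial markers listed, 4 of 6 and 5 of 6 were called higher in colon, beside 8.62% of all genes called higher in each population. In skin it was 2 of 6 and 3 of 6, beside 16.7% and 14.4% called higher.

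Pecam1, or CD31, an adhesion molecule of endothelium that leukocytes carry too (chr11:106654217-106750628), was counted in 67 of 67 libraries and was highest where Cdh5 was absent. Its mean was 360.3 ± 38.5 CPM in Lungs CD44lo CD62L+, 304 ± 43.2 in Blood ST2- CD44hi and 298 ± 54.9 in Spleen CD44lo CD62L+ Tregs. It was 209 ± 33.5 and 174 ± 6.78 CPM in Lungs and Spleen ST2- CD44hi, 201 ± 37.2, 155 ± 32.5 and 132 ± 45.2 in Blood, Lungs and Spleen ST2+, and 56.3 ± 30.0 and 45.2 ± 25.9 in VAT and Skin ST2+ Tregs (SD, n = 4 or 5). Neighbours in this order overlapped in all cases. Pecam1 was lower than in the spleen in Skin ST2- CD44hi (log2 fold change -1.36, SE 0.36, adjusted p = 0.00235), Skin ST2+ (-1.34, SE 0.37, adjusted p = 0.00329) and VAT ST2+ Tregs (-1.13, SE 0.36, adjusted p = 0.026), the last being lost without mouse 3, 4 or 5. It was higher in CD44lo CD62L+ than in ST2- CD44hi Tregs in 5 of 5 mice in spleen and in lungs, by 0.77 (SE 0.35, adjusted p = 0.233) and 0.76 (SE 0.34, adjusted p = 0.217) on the log2 scale, which was not called. Voom called both differences (adjusted p = 0.000202 and 0.000599).

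The data went against the label of a fat marker for Adipoq. Adiponectin, the hormone of adipocytes (chr16:23146536-23158028), had 0 counts in all 10 VAT libraries and was counted in 16 of 57 libraries of other tissues. In Spleen ST2- CD44hi Tregs it was at 10.6, 3.53, 13.2, 4.39 and 1.13 CPM, in Spleen ST2+ Tregs at 6.36, 4.44, 1.22, 0 and 0 CPM, and in Spleen CD44lo CD62L+ Tregs at 0 in all 5. Against the spleen, Adipoq was lower in Colon ST2- CD44hi (adjusted p = 0.0464) and Skin ST2- CD44hi Tregs (adjusted p = 0.022), both with no count. The colon call was lost when any 1 mouse was left out and with the mouse as a block (adjusted p = 0.0651), and the skin call without mouse 1, 2 or 3. In VAT it was at least 22.0-fold lower in ST2- CD44hi and at least 8.33-fold lower in ST2+ Tregs, which was not called (adjusted p = 0.0622 and 0.0873). Voom called the former, at -4.27 on the log2 scale (adjusted p = 0.00107). The cause of the spleen counts was not tested.

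Cfd, the complement factor adipsin, kept to VAT but was scarce, at 2.17, 0, 7.81, 0 and 0.995 CPM in VAT ST2- CD44hi Tregs and at 1.60 CPM in mouse 1 alone of VAT ST2+ Tregs, with no count in the other 57 libraries. Plin1, the coat protein of lipid droplets, was counted in 1 of 10 VAT libraries, at 1.46 CPM, and in 6 of 57 others at up to 1.37 CPM. Neither was tested. The other fat markers listed summed to 12.4 to 222 CPM and 16.8 to 50.8 CPM in the 2 VAT populations. No level of the spleen is set beside these sums, so they are not read here as RNA of fat cells.

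Red cell RNA was high in the blood of mice 4 and 5 only. The 4 adult globin genes come in pairs of near-identical copies, which bears on how 58-base reads are assigned. The coding sequences of Hba-a1 and Hba-a2, 429 bases each, differ at 1 base, and those of Hbb-bs and Hbb-bt, 444 bases each, at 1 base. The 60-base stretches around these positions are given below from the GENCODE M21 transcripts (GRCm38), with the differing base in capitals, because it is the only coding base that separates each pair.
Hba-a1: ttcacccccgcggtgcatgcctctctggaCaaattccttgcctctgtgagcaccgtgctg
Hba-a2: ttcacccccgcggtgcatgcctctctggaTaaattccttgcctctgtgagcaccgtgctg
Hbb-bs: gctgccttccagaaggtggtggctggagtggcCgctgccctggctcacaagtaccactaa
Hbb-bt: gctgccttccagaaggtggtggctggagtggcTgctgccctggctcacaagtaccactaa
The stretches lie at chr11:32284314-32284373 and chr11:32297131-32297190 on the plus strand and at chr7:103826665-103826724 and chr7:103812656-103812715 on the minus strand. Of all 58-base windows in the coding sequence, 86.8% are shared between the alpha pair and 92.8% between the beta pair. Over the whole transcript, 65.9% of the windows of Hba-a1, 85.1% of Hba-a2, 65.3% of Hbb-bs and 57.7% of Hbb-bt are shared with the partner. The split within a pair is uncertain for reads from shared windows.

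Hbb-bs, an adult beta-globin gene (chr7:103826534-103828096), was at 1.85, 1.29, 0.495, 154 and 208 CPM in Blood ST2- CD44hi Tregs and at 8.30, 11.1, 139 and 145 CPM in mice 2 to 5 of Blood ST2+ Tregs. Hbb-bt was at 0, 1.94, 0, 107 and 147 CPM and at 1.11, 0.445, 101 and 71.8 CPM in the same libraries. Hba-a2 was at 0, 0, 0.495, 41.1 and 51.9 CPM and at 0, 0.889, 36.0 and 34.5 CPM. Mice 4 and 5 were above the other mice in both blood populations for these genes. Outside blood, Hbb-bs was counted in 16 of 58 libraries at no more than 1.10 CPM.

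The ratio of Hbb-bs to the spleen was 277 in ST2- CD44hi cells, with a counting interval of 94.5 to 1348, and 884, with an interval of 158 to 34974, in ST2+ cells (adjusted p = 0.000163 and 0.00012). Hbb-bt was at least 194-fold and 169.6-fold higher (adjusted p = 0.00291 and 0.00436). DESeq2 did not make these calls (adjusted p = 0.24 and 0.285), and without mouse 2, 4 or 5 the gene did not pass the filter and was not tested. Hbb-bs and Hbb-bt, too, were known from earlier results to be restricted to blood. Hba-a2 was at least 70.9-fold and 69.5-fold higher but did not pass the filter. Over all lists, 4 members were called higher in blood and Epcam lower in each population, beside 3.38% and 4.11% of all genes called.

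Hba-a1 (chr11:32283511-32284465) was highest in the blood of mice 4 and 5, like the other adult globins, but differed from them in mouse 3. It was at 0.462, 3.23, 15.8, 42.1 and 54.3 CPM in Blood ST2- CD44hi Tregs and at 3.87, 25.8, 39.4 and 38.8 CPM in mice 2 to 5 of Blood ST2+ Tregs, with mouse 3 well above mice 1 and 2. It was 12.2-fold and 9.95-fold above the spleen and was not called (adjusted p = 0.372 and 0.401). In mouse 3 it was counted in all 14 libraries, at 10.02 to 25.8 CPM. The 12 libraries of mouse 3 outside blood had a median of 13.6 CPM and 20 to 48 counts each. Spleen had 10.02, 11.01 and 11.8 CPM, lungs 11.004, 13.2 and 22.5 CPM, VAT 12.2 and 17.0 CPM, colon 17.6 and 14.2 CPM, and skin 17.0 and 14.04 CPM. The 46 libraries of the other mice outside blood held 0 to 3 counts, at most 1.48 CPM, so that mouse 3 did not overlap with any of them. Hba-a2, Hbb-bs and Hbb-bt reached only 0.408, 0.488 and 1.34 CPM in the libraries of mouse 3 outside blood. With the replicate number as a block in the fit, which pairs the libraries by mouse, Hba-a1 was called higher in both blood populations, by 7.09 and 4.72 on the log2 scale, against 3.54 and 3.29 without it. In ST2- CD44hi cells it was also called without mouse 3 (adjusted p = 0.00563) and by voom (adjusted p = 0.00223). This pattern was picked out after its values were seen, and its cause was not tested.

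**Figure D3:**
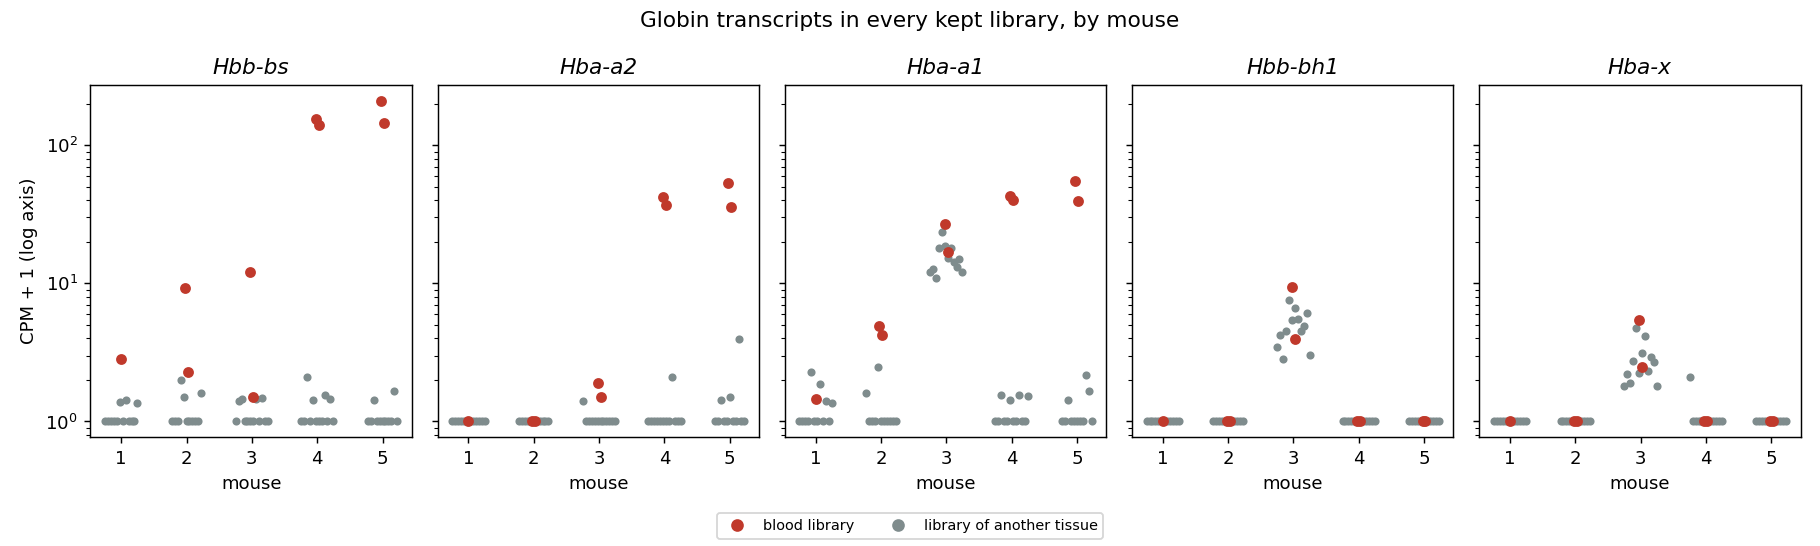
CPM + 1 on a log axis of Hbb-bs, Hba-a2, Hba-a1 and the embryonic globins Hbb-bh1 and Hba-x for each of the 5 mice, 1 point per library, red for blood and grey for other tissues. Hbb-bs, Hba-a2 and Hba-a1 are raised in the blood of mice 4 and 5. Outside blood, Hba-a1 is raised in the libraries of mouse 3 alone, and Hbb-bh1 and Hba-x are counted in every library of mouse 3.

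Platelet RNA was in all 9 blood libraries. Ppbp, the platelet basic protein (chr5:90768518-90770063), was at 22.2, 40.8, 49.5, 92.0 and 102 CPM in Blood ST2- CD44hi Tregs and at 93.5, 236, 164 and 160.3 CPM in mice 2 to 5 of Blood ST2+ Tregs. Pf4, platelet factor 4 (chr5:90772435-90773383), was at 44.8, 16.8, 17.3, 43.7 and 72.4 CPM and at 86.3, 156, 90.6 and 133 CPM. Unlike the beta-globins, both were high in every mouse. Ppbp was at least 238-fold higher than in the spleen in ST2- CD44hi cells (61.3 ± 34.3 CPM, n = 5, adjusted p = 0.00184) and 192-fold higher in ST2+ cells (164 ± 58.4 CPM, n = 4, log2 fold change 7.52, SE 1.70, adjusted p = 0.00465). Pf4 had a ratio of 464, with a counting interval of 82.8 to 18380, in ST2- CD44hi cells and was 169-fold higher in ST2+ cells (adjusted p = 0.00372 and 0.00418). DESeq2 did not make the ST2+ call of Ppbp (adjusted p = 0.0732). Without mouse 3 both calls in ST2+ cells were lost, which with Epcam left 2 of 5 calls there.

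Both platelet genes were higher in ST2+ than in ST2- CD44hi Tregs of the blood in 4 of 4 mice. The log2 differences were 1.39 (SE 1.30, adjusted p = 0.629) for Ppbp and 1.56 (SE 1.29, adjusted p = 0.569) for Pf4, neither called by edgeR. Voom called Ppbp, at 1.11 (adjusted p = 0.0451). The Blood ST2+ libraries of mice 2 to 5 came from 202, 55, 220 and 220 cells, and the Blood ST2- CD44hi library of mouse 1 from 166. Of the other platelet markers listed, 5 of 6 were called higher in each blood population.

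Outside blood the 2 platelet genes parted. In the lungs they appeared in mice 1 and 3 only, with Ppbp at 22.2 and 26.1 CPM and Pf4 at 20.3 and 9.78 CPM in ST2- CD44hi Tregs, and with Ppbp at 25.4 and 2.20 CPM and Pf4 at 14.04 and 4.39 CPM in ST2+ Tregs. Against the spleen, Ppbp was called in Lungs ST2- CD44hi Tregs (adjusted p = 0.0214), and the call was lost without mouse 2, 3, 4 or 5 and by DESeq2 and voom. Both were at 0 in all 5 Lungs CD44lo CD62L+ libraries and were called lower there than in ST2- CD44hi Tregs (adjusted p = 0.0215 and 0.0303), 2 members beside 5.53% of all genes called. Neither call held without mouse 2, 3 or 5, and that of Pf4 was lost without mouse 1 and that of Ppbp without mouse 4. Voom made neither call (adjusted p = 0.279 for Pf4 and 0.170 for Ppbp). Pf4 was counted with little Ppbp in Colon ST2- CD44hi Tregs at 0.559, 20.6, 20.1, 0 and 0 CPM and in Colon ST2+ Tregs at 62.6, 14.9 and 11.5 CPM in mice 1, 3 and 4 (adjusted p = 0.0189 and 0.0194 against the spleen). The former call was lost without mouse 2 or 3 and the latter without mouse 2, 3 or 5. In VAT ST2+ Tregs Pf4 was at 20.4, 0, 1.34, 0 and 42.3 CPM and was not called (adjusted p = 0.0507), but it was with the mouse as a block (adjusted p = 0.0339), with RLE factors and without mouse 1. In Skin ST2+ Tregs Ppbp was at 57.99, 5.37, 0, 0 and 4.53 CPM (adjusted p = 0.0304, lost without mouse 2, 3, 4 or 5) and Pf4 at 9.60, 8.96, 8.98, 2.30 and 5.04 CPM (adjusted p = 0.0606, and 0.0301 with the mouse as a block).

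**Figure D4:**
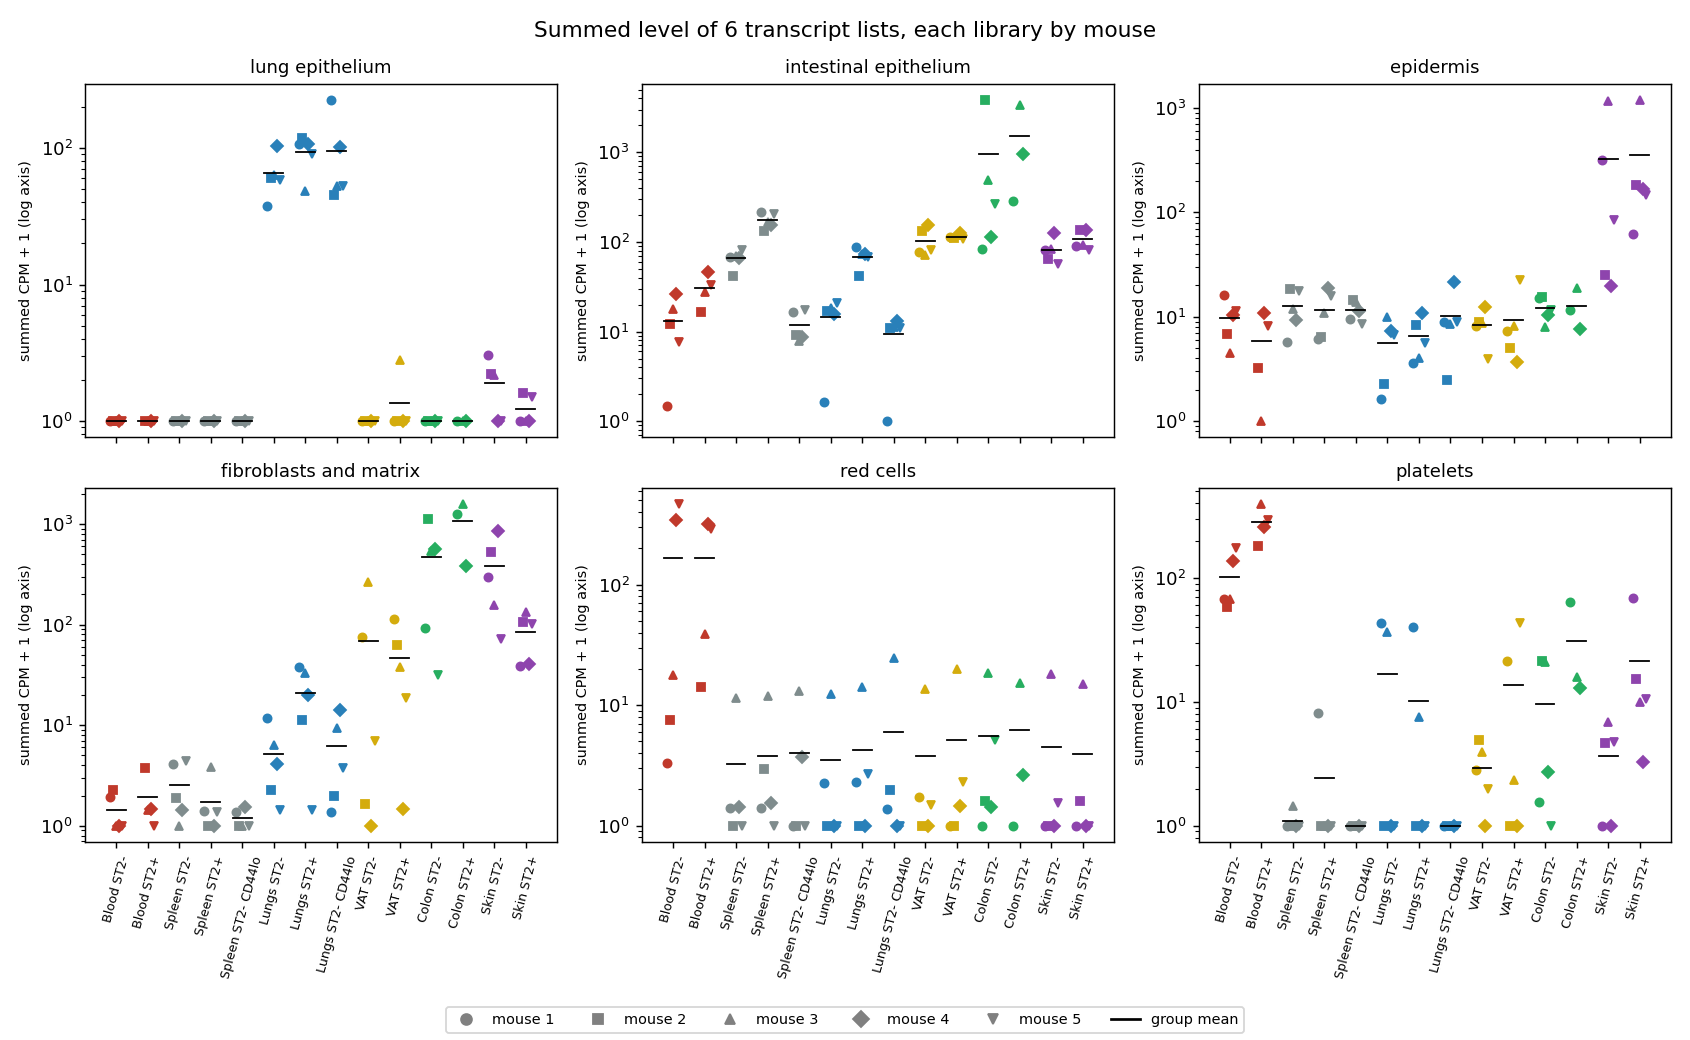
Summed CPM + 1 of 6 lists (lung epithelium, intestinal epithelium, epidermis, fibroblasts and matrix, red cells, platelets) on log axes in each of the 14 groups, 1 point per library with the mouse given by the marker shape and a line at the group mean. Within their own tissue, lung sums run from 36.8 to 224 CPM and platelet sums from 57.6 to 392.1 CPM. Intestinal sums run wider, from 82.8 to 3859 CPM, and so do epidermal sums, from 18.8 to 1199 CPM.

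Epcam, an adhesion molecule of epithelia (chr17:87635979-87651129), stood apart from the other intestinal genes. It was counted in 65 of 67 libraries and differed between Treg populations in tissues where the other epithelial genes were near 0. Its mean was highest in Colon ST2+ (255 ± 151 CPM, n = 3), then Spleen ST2+ (164 ± 31.3 CPM), Colon ST2- CD44hi (111 ± 112 CPM) and VAT ST2+ Tregs (107 ± 4.61 CPM). It was lowest in Spleen and Lungs CD44lo CD62L+ Tregs (10.4 ± 4.77 and 7.22 ± 4.45 CPM, n = 5). Neighbours in the order of the 14 groups overlapped.

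In the spleen Epcam was at 66.5, 38.8, 68.3, 64.6 and 76.8 CPM in ST2- CD44hi, at 196, 127, 156, 144 and 197 CPM in ST2+ and at 15.3, 8.04, 6.91, 5.98 and 15.8 CPM in CD44lo CD62L+ Tregs. The 3 spleen populations did not overlap. In the lungs it was at 0.635, 15.4, 14.3, 14.1 and 16.6 CPM in ST2- CD44hi, at 68.4, 35.3, 67.6, 68.2 and 62.4 CPM in ST2+ and at 0, 7.41, 7.496, 12.03 and 9.18 CPM in CD44lo CD62L+ Tregs. Lungs ST2+ Tregs were above both other lung populations in every mouse. In the blood it was at 0, 10.999, 11.4, 25.0 and 6.64 CPM in ST2- CD44hi and at 14.4, 26.7, 45.5 and 32.1 CPM in mice 2 to 5 of ST2+ Tregs.

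Epcam was higher in ST2+ than in ST2- CD44hi Tregs of the lungs by 2.29 on the log2 scale (SE 0.51, adjusted p = 0.00958, 5 of 5 mice), a call that was lost without mouse 3, 4 or 5. The same difference was 1.38 in spleen (SE 0.47, adjusted p = 0.418) and 1.44 in blood (SE 0.54, adjusted p = 0.119), neither called by edgeR, although ST2+ was higher in 5 of 5 and 4 of 4 mice. Voom called the spleen difference, at 1.34 (adjusted p = 0.00055). ST2+ was also the higher in 3 of 3 mice in colon, 5 of 5 in skin and 3 of 5 in VAT. It was lower in CD44lo CD62L+ than in ST2- CD44hi Tregs of the spleen by 2.58 (SE 0.52, adjusted p = 0.000331), beside 5.03% of all genes called. Against the spleen it was lower in blood in ST2- CD44hi (-2.50, SE 0.52, adjusted p = 0.00115) and ST2+ Tregs (-2.44, SE 0.54, adjusted p = 0.00258, lost without mouse 3) and in lungs in ST2- CD44hi Tregs (-2.25, SE 0.51, adjusted p = 0.00249). The colon was not called against the spleen for Epcam, at 0.95 (SE 0.47, adjusted p = 0.186) and 0.77 (SE 0.52, adjusted p = 0.409), and the difference in ST2- CD44hi cells was -0.06 without mouse 2 and 1.21, then called, without mouse 1 (adjusted p = 0.0291).

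**Figure D5:**
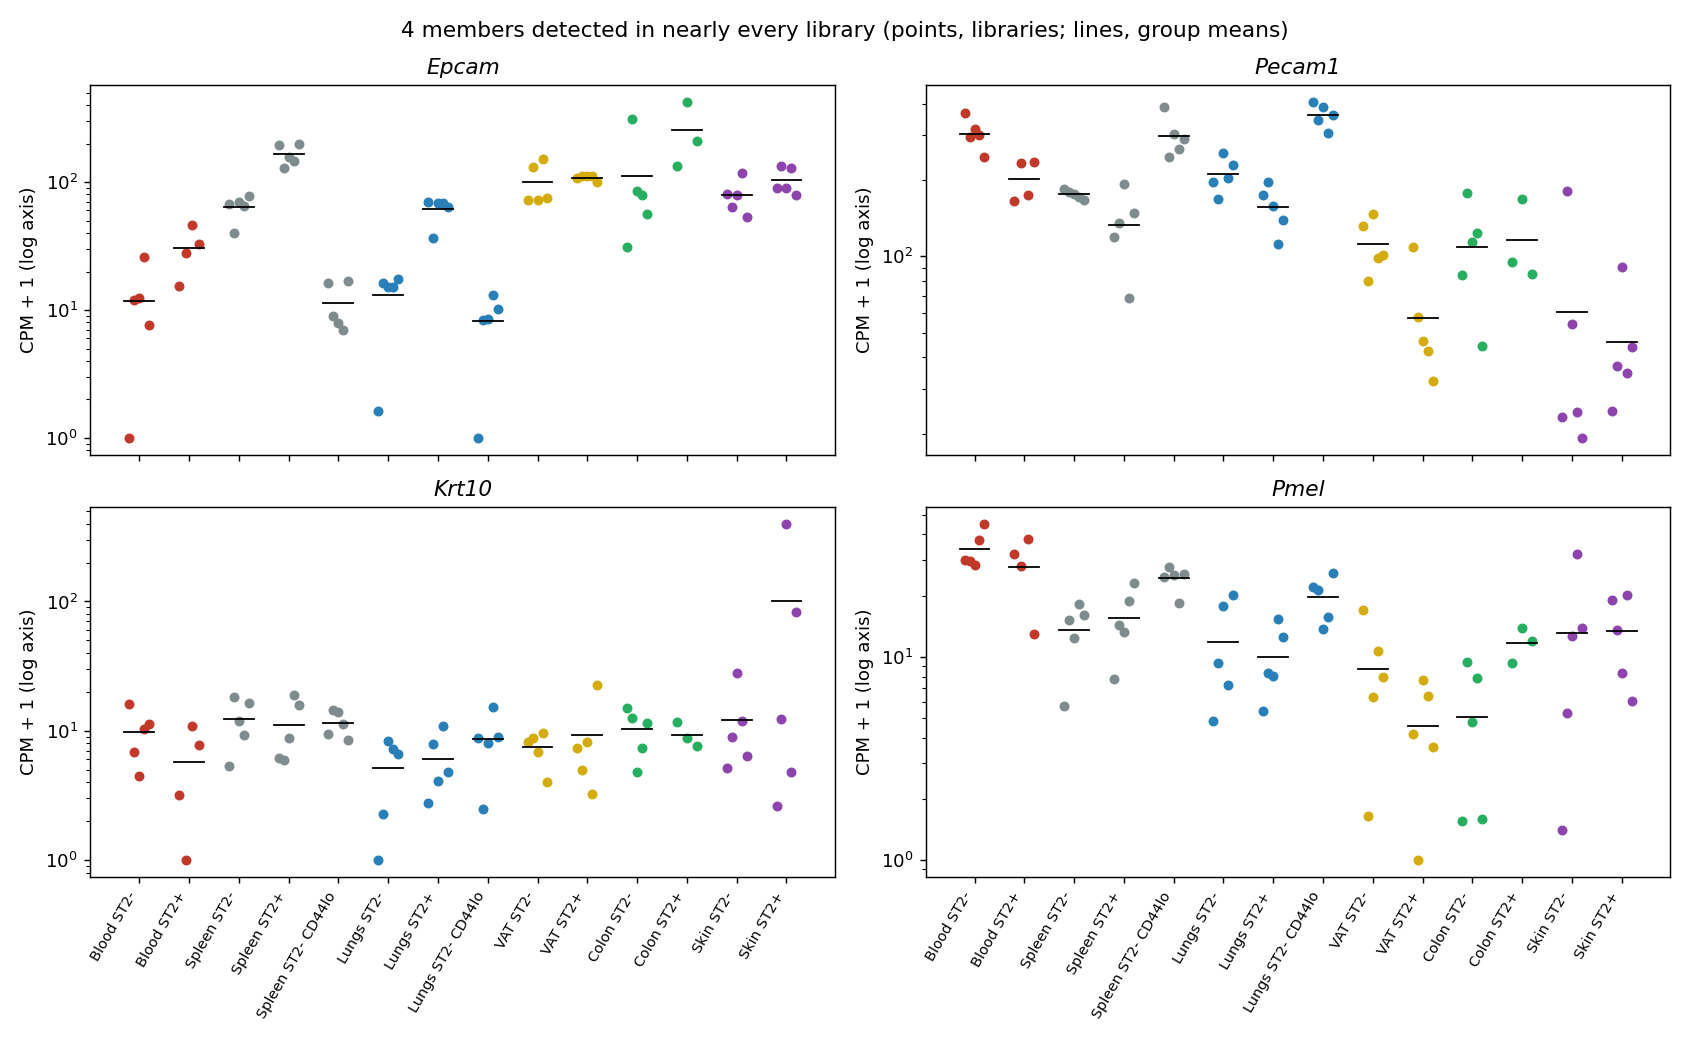
CPM + 1 on a log axis of Epcam, Pecam1, Krt10 and Pmel in the 14 groups, 1 point per library with a line at the group mean. For Epcam every ST2+ library of spleen and lungs lies above the ST2- CD44hi libraries of its tissue (35.3 CPM and above against 16.6 CPM and below in lungs), and group means of Pecam1 run from 360.3 CPM in Lungs CD44lo CD62L+ to 45.2 CPM in Skin ST2+ Tregs.

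Epcam, Pecam1, Krt10 and Pmel made up most of the members' counts in the spleen. Without these 4 genes, chosen after their values were seen, the other 39 took 0.0013%, 0.0017% and 0.0004% of all counts in Spleen ST2- CD44hi, ST2+ and CD44lo CD62L+ Tregs. They took 0.0090%, 0.0137% and 0.0107% in the same populations of the lungs. In ST2- CD44hi and ST2+ Tregs the shares were 0.0083% and 0.0070% for VAT, 0.0270% and 0.0446% for blood, 0.0718% and 0.0364% for skin, and 0.144% and 0.274% for colon. Pmel was lower in VAT ST2+ (3.59 ± 2.61 CPM) than in Spleen ST2+ Tregs (log2 fold change -1.88, SE 0.66, adjusted p = 0.0474), and this call was lost without mouse 2, 3, 4 or 5.

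Between ST2+ and ST2- CD44hi Tregs of 1 tissue, Epcam in the lungs was the only one of 32 tested members called, where 0.782% of all genes were called. edgeR called 0 members in blood, spleen, VAT, colon and skin, beside 4.04%, 0.319%, 3.12%, 0.0683% and 0.213% of all genes. At an unadjusted p under 0.05 there were 1, 3, 7, 2 and 7 members, beside 18.8%, 5.16%, 17.7%, 5.04% and 8.46% of all genes. DESeq2 called 0, 0, 1, 0 and 1 members, beside 6.51%, 0.752%, 4.53%, 0.175% and 0.774% of all genes. Limma with voom and quality weights is the type of fit the paper used. It called 1, 1, 0, 9 and 0, beside 3.31%, 1.71%, 2.98%, 2.24% and 0.418%. Those by DESeq2 were Krt1 in VAT and Krt10 in skin, and those by voom were Ppbp in blood and Epcam in spleen. The 9 in colon by voom were Adamdec1, Col1a1, Col3a1, Dcn, Epcam, Krt19, Krt8, Lum and Lypd8. The tissue by ST2 interaction was past the threshold for 0 of 32 members by edgeR, beside 1.43% of all genes, with 4 at an unadjusted p under 0.05, beside 13.3% of all genes. Voom had 2 past the threshold, Epcam and Lum, beside 6.63% of all genes. For Epcam the adjusted p of the interaction was 0.338 by edgeR. The edgeR and voom fits thus differed on whether its ST2 difference varied between tissues.

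In skin, 11 members were called higher and 2 lower in ST2- CD44hi and 11 higher and 1 lower in ST2+ Tregs, of 32 tested. Of all genes, 16.7% were called higher and 14.1% lower in the former and 14.4% and 14.6% in the latter. Without mouse 3 these calls went from 13 to 9 and from 12 to 7, and DESeq2 called 8 in each. Among them, the lung gene Scgb1a1 was called in Skin ST2- CD44hi Tregs at a mean of 0.646 CPM (adjusted p = 0.0124), and the call was lost without mouse 1 or mouse 3 and by DESeq2. Exons of 5 of the 43 genes overlap exons of another annotated gene. Besides Pmel, these are Krt8 with 101 of 1958 bases, Krt5 with 129 of 2197, Krt10 with 146 of 2114 and Col3a1 with 141 of 9816.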

How the data were processed

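Counts were deposited for 70 libraries. The authors trimmed 58-base single reads, aligned them with STAR to GRCm38 with Ensembl release 91 and counted reads per gene with HTSeq 0.4.1, so the deposited values are raw counts per gene. Neither the strand setting nor the treatment of multi-mapping reads is given in the sources used here.

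The members were chosen by name, and the members and lists were chosen with earlier results of these data known. Of 53465 IDs, 53274 matched GENCODE M21 (Ensembl release 96) and 21865 were protein-coding. Libraries with over 1000000 counts were kept (67 of 70), and 13173 protein-coding genes reaching 1 CPM in 10% of them were tested. CPM is counts scaled to a library of 1000000.

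Counts were fitted with edgeR 4.0.16 (R 4.3.3), using TMM factors, the quasi-likelihood test and 1 term per group, for 20 comparisons. A call needed a p of at most 0.05 after Benjamini-Hochberg adjustment over these genes and a fold change of at least 1.5. The fit was checked on simulated counts. Libraries were compared across tissues with the spleen as reference because it was dissociated without enzyme. Values by library are given for the 3 members of each list with the highest mean in the CD44hi libraries of their home tissue and for members called between populations, and other members by range and counts. Folds against groups with 0 counts use a floor of 3 counts, ratios on 1 to 3 counts carry 95% counting intervals, and both cover counting error only. Reads carried no molecular identifiers.

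Replicate numbers name the mouse, so they pair libraries by animal. Deviations from the group means of the CD44hi libraries that share a mouse and tissue correlated at -0.00633 to 0.180 over 27 pairs, 6 of them above 0.1. Alternatives were a fit in DESeq2 1.42.0, one by voom with quality weights (limma 3.58.1), a replicate block, RLE factors, robust fitting, other filters, all 70 libraries, and leaving out each mouse. Values were computed with Python 3.11.15, numpy 2.4.6, pandas 2.3.3 and scipy 1.17.1, and figures drawn with matplotlib 3.10.9. No 2 libraries held identical counts.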

Additional observations from a re-analysis of the deposited data

Results flagged for a closer look

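Groups of 4 or 5 libraries were searched for 1 library whose gap to the nearest other exceeded Dixon's limit at the 95% level. Of 103 groups tested, 33 held such a library, and each is given here as a value in CPM with no explanation. The limit is set so that chance flags about 1 in 20 groups of normally distributed values. These levels are skewed, with many at 0, and the sums hold genes also tested singly, so the number of groups was not set against chance.

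VAT ST2- CD44hi of mouse 3, from 192 cells, stood apart for Sparc at 173, Cdh5 at 20.5, Cfd at 7.81, Col3a1 at 5.37, Plin1 at 1.46, the stromal sum at 261 and the fat sum at 9.28. VAT ST2+ of mouse 1 stood apart for Dcn at 63.1, Cfd at 1.60 and the fat sum at 1.60. Colon ST2- CD44hi of mouse 2 stood apart for Muc2 at 1902, Lypd8 at 520.4, Epcam at 308, Cdh5 at 18.7 and the intestinal sum at 3859.

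In skin, the ST2+ library of mouse 3 stood apart for Krt5 at 226, Krt15 at 214, Cdh5 at 6.18, the epidermal sum at 1199 and the endothelial sum at 95.998. The ST2- CD44hi library of mouse 3 did so for Krt14 at 519, Krt5 at 432 and the epidermal sum at 1168, that of mouse 2 for Pecam1 at 179, Cdh5 at 10.97 and the endothelial sum at 190.1, and that of mouse 4 for Dcn at 475, Tyrp1 at 19.4 and the melanocyte sum at 76.3.

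In lungs, the flagged values were Col3a1 at 10.97 in ST2+ of mouse 1, Dcn at 1.31 in ST2+ of mouse 4, Sftpa1 at 59.9 in CD44lo CD62L+ of mouse 1 and Dcn at 8.20 in CD44lo CD62L+ of mouse 4.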

How the results depend on the processing

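Counts of members called are given here for the alternatives that moved them by over 1.5 times, each in the order of ST2- CD44hi and ST2+ where there are 2. With a filter of 1 CPM in 50% of libraries, which left 5 members tested, blood had 1 and 1, lungs 1 and 1 with 0 in CD44lo CD62L+, VAT ST2- CD44hi 1, colon 1 and 1, skin 2 and 3, and CD44lo CD62L+ against CD44hi of lungs 0. DESeq2 called 9 and 9 in colon and 8 in Skin ST2- CD44hi Tregs, 1 between the populations of VAT and 1 of skin, and 2 between CD44lo CD62L+ and CD44hi of spleen. Limma with voom and quality weights called 8 in Blood ST2- CD44hi, 1 and 2 in VAT, 1, 1 and 9 between ST2+ and ST2- CD44hi of blood, spleen and colon, 3 between CD44lo CD62L+ and CD44hi of spleen and 2 in the interaction. Without the highest library of each group outside the spleen, chosen after seeing the data, 1 and 2 were called in VAT, 9 in Colon ST2- CD44hi and 0 in CD44lo CD62L+ against CD44hi of lungs.

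Leaving out each mouse in turn gave 4 to 6 and 2 to 6 calls in blood, 3 to 4 and 3 to 4 in lungs with 2 in CD44lo CD62L+. For VAT it gave 1 to 2 and 2 to 4, for colon 9 to 15 and 7 to 13, for skin 9 to 11 and 7 to 12. Between populations it gave 0 to 1 for ST2 in lungs, 0 to 1 for CD44lo CD62L+ in lungs and 1 in spleen. A called gene that then missed the filter was not tested: Hbb-bt without mouse 2, 4 or 5, Adamdec1 without mouse 3 or 4 and Krt1 without mouse 3.

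The replicate block called 6 and 6 in blood, 5, 5 and 2 in lungs, and for VAT 2 and 5, for colon 13 and 15 and for skin 13 and 12, all within 1.5 times. It ended the calls of Lum in VAT, Adipoq and Pigr in colon, all in ST2- CD44hi, of Krt1 in Skin ST2+ and of Sftpa1 in lungs of CD44lo CD62L+ Tregs, and added those of Hba-a1 in blood, Cdh5 in Colon ST2+, Pf4 in VAT ST2+ and Skin ST2+ and Krt19 in Lungs ST2+ Tregs. Of 68 log2 fold changes of named genes, 64 kept direction and call with the block, 66 with RLE factors, 67 with no CPM filter, 67 with all 70 libraries, 68 with robust fitting, 56 with DESeq2 and 56 with voom. Of those that changed sign, Pmel in Skin ST2- CD44hi was -0.23 with voom and -0.43 without replicate 4. Pmel in Skin ST2+ was 0.0088 with DESeq2, 0.011 with RLE factors, 0.060 with the block, 0.07 without replicate 3, 0.39 without replicate 5 and 0.11 without the highest libraries. Leaving out each mouse, Pmel ranged from -0.43 to 0.43 in Skin ST2- CD44hi and from -0.36 to 0.39 in Skin ST2+, Epcam in Colon ST2- CD44hi from -0.057 (without replicate 2) to 1.22 and Pecam1 in Colon ST2+ from -0.29 to 0.015 (without replicate 1). The cause was not tested. Depth limits genes near 1 CPM, which rest on about 2 counts a library, and at 3 or 4 libraries the blood and colon ST2+ means rest on few mice.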

Other observations

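Embryonic globins followed Hba-a1 in mouse 3. Hbb-bh1, an embryonic beta-like globin, was counted in 14 of 14 libraries of mouse 3 (4 to 19 counts, median 3.71 CPM) and in 0 of the 53 libraries of the other mice. Hba-x, an embryonic alpha-like globin, was counted in 14 of 14 (2 to 10 counts, median 1.58 CPM) and in 1 of 53 others, with 2 counts. In a search of all 53465 IDs, these were the only genes found in every library of mouse 3 and at 3 counts or fewer in every other library, and Hba-a1 and Hbb-bh1 the only ones above all other mice in every library outside blood. The same search found 0 genes for each other mouse. It was made after the Hba-a1 values were seen, and the cause was not tested.

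The libraries left out for depth held members as well. Blood ST2+ of mouse 1, from 66 cells and 488666 counts, had 195 counts of Pf4 (399 CPM) and 71 of Ppbp (145 CPM). Colon ST2+ of mouse 5, with 62333 counts, had 292 counts of the intestinal list (4685 CPM) and 2 of the stromal list (32.1 CPM), led by Lypd8 with 67 counts and Krt19 with 57. Colon ST2+ of mouse 2 had 3582 counts in all.

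As a description over the 67 libraries, which share mice and tissues, the genes whose log2 CPM was most like that of a leading member were members or markers of the same source for some and not for others. For Sftpc these were Scgb1a1 (Pearson r 0.93) and Sftpa1 (0.86), then Sec14l3 and Arid5a (0.66 each). For Krt14 they were Krt5 (0.90), Krt15 (0.89) and Dmkn (0.89), for Adamdec1 Tcf21 (0.95), Spon2 (0.92) and Wdfy4 (0.91), for Hbb-bs Hbb-bt (0.95) and the platelet gene Clec1b (0.84), and for Ppbp Clec1b (0.86), Gp9 (0.86) and Itga2b (0.81). For Pecam1 they were Nod1 (0.85), Klf3 (0.84) and S1pr1 (0.84), and for Sparc Cd63 (0.86), Pmp22 (0.86) and Dcn (0.85). For Pmel they were Zdhhc20 (0.655), Tdrp (0.650) and Zfp81 (0.64).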
